A study of Homo sapiens with 2 samples.

Results

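Vesicle coats, cargo adaptors, endosomal sorting complexes and syntaxins were described in the Caco-2 line, which derives from a human colon carcinoma and can form polarised layers resembling enterocytes. The genes were taken by name: protein-coding RefSeq (NM) records whose symbols belong to the COPI and COPII coats, the adaptor complexes AP-1 to AP-5, the ARF GTPases, or the VPS, SNX and STX gene names. This gave 122 of the 18646 NM records, out of 23709 records in all. A few symbols carry the name without the function, such as VPS72, a subunit of chromatin complexes, and they were kept because the rule is by name. Poly(A) RNA came from total RNA (the total-mRNA library) and from ribosome-nascent chain complexes, that is, RNA bound by translating ribosomes (the RNC library), and each group has 1 library. The cells were grown in serum-containing medium with antibiotics, and no treatment is named in the labels. The labels leave unsaid whether 1 culture gave both RNA preparations. Pairs of RPKM values below give the total-mRNA library first and the RNC library second.

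Membrane traffic moves proteins between organelles in vesicles. COPII coats carry cargo out of the endoplasmic reticulum and COPI coats return it from the Golgi, while ARF GTPases recruit COPI and several adaptors to membranes. AP complexes link cargo to clathrin or to other coats, retromer and sorting nexins retrieve cargo from endosomes, and HOPS, CORVET and GARP tether incoming membranes. ESCRT complexes sort ubiquitinated cargo into multivesicular bodies, and syntaxins are SNARE proteins that drive the final fusion. In polarised epithelial cells these steps keep apical and basolateral proteins apart.

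Depth was inferred from the deposited RPKM values (reads per kilobase of transcript, scaled to library size), as 9640364 reads for the total-mRNA library and 11083302 for the RNC library. All 10 epithelial markers examined had at least 1 RPKM in the total-mRNA library and 9 had so in the RNC library, with LGALS4 at 0.776 RPKM there. Markers of other cell types summed to 65.97 RPKM in the total-mRNA library and 48.2 RPKM in the RNC library, against 6083 and 5567 RPKM for the epithelial markers. COL1A1 made up most of that sum, with 46.8 and 26.1 RPKM, and the leukocyte gene PTPRC had 0.363 and 0.0332 RPKM. SYP (6.14 and 13.5 RPKM) and PDGFRB (2.02 and 2.37 RPKM) were higher in the RNC library. COL3A1 (5.38 and 3.86 RPKM) and PECAM1 (4.12 and 1.58 RPKM) were lower there. Of the 10 markers of other cell types, 5 had at least 1 RPKM in each library. The part of these markers in the results was not tested.

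For each gene the RNC level was divided by the total-mRNA level, after adding 0.1 RPKM to both, and this ratio is given as log2 relative to the median of the 13402 expressed records (mean RPKM of both libraries of at least 1). A ratio of 0 is therefore that of the median gene, and 1 or -1 is 2-fold above or below it. With 1 library per group there is no replicate check and no test, and all differences describe this pair of libraries. The 95% intervals given are exact Clopper-Pearson intervals of the read ratio, without the added 0.1 RPKM, and cover counting error only. They use the fewest whole reads that could give both RPKM values of a gene, so they are at their widest. An interval that includes the median gene, or overlaps another interval, might not do so at the true read numbers. In a bulk culture, fewer cells using a gene and less RNA per cell cannot be told apart.

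Trafficking mRNAs were mostly close to the median gene, with a small excess on the RNC-mRNA side. Of the 122 members, 114 were expressed, and their median ratio was 0.16 against 0.03 over all expressed NM records. The members' ratios lay above the median gene in 71 of 114 cases (62.3%), where 52.6% of all expressed NM records did. Under other scalings 6 of the members changed side (AP1M2, COPG1, SEC24C, SNX14, VPS11 and VPS41), which moves the counts above the median given for their classes. The counting interval lay wholly above the median gene for 53 members (46.5%, background 31.6%) and wholly below it for 20 (17.5%, background 28.3%). Only 3 members were at least 2-fold below the median gene (2.63%, background 8.88%) and 0 were at least 2-fold above it (background 1.33%). The 3 low members were SEC31B, AP4S1 and AP1G2, and the next lowest, VPS13A (-0.93) and VPS9D1 (-0.92), lay just inside the 2-fold line. Of these, SEC31B passed the expression filter only through its total-mRNA level.

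The position varied with expression level. Among members with a mean RPKM of at least 10, 55 of 73 (75.3%) lay above the median gene, and 62.9% of all NM records at that level did. Among the 41 members between 1 and 10 RPKM, 16 (39.02%) lay above it, and 41.8% of all NM records at that level did. At least 2-fold below the median gene lay 1 of the 73 (background 2.58%) and 2 of the 41 (background 15.5%). The interval backgrounds of 31.6% and 28.3% are over all levels. Intervals lay wholly above the median gene for 44 of the 73 (2742 of 6135 NM records at that level). They did so for 9 of the 41 (1034 of 5805 NM records). Intervals lay wholly below it for 8 of the 73 (1436 of 6135) and 12 of the 41 (1947 of 5805). Across the 110 members with a matched reference transcript, the Spearman correlation between the ratio and the mean RPKM was 0.36, and it was 0.28 across 11584 expressed NM records. The correlation with the length of the 5' untranslated region was 0.26 over the members and 0.08 over all. With the length of the 3' untranslated region it was 0.16 and 0.12. It was -0.13 and -0.11 with coding length, and 0.04 and 0.00 with whole transcript length. These are correlations across genes of the same 2 libraries, and the mean RPKM contains the values that form the ratio.

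**Figure D1:**
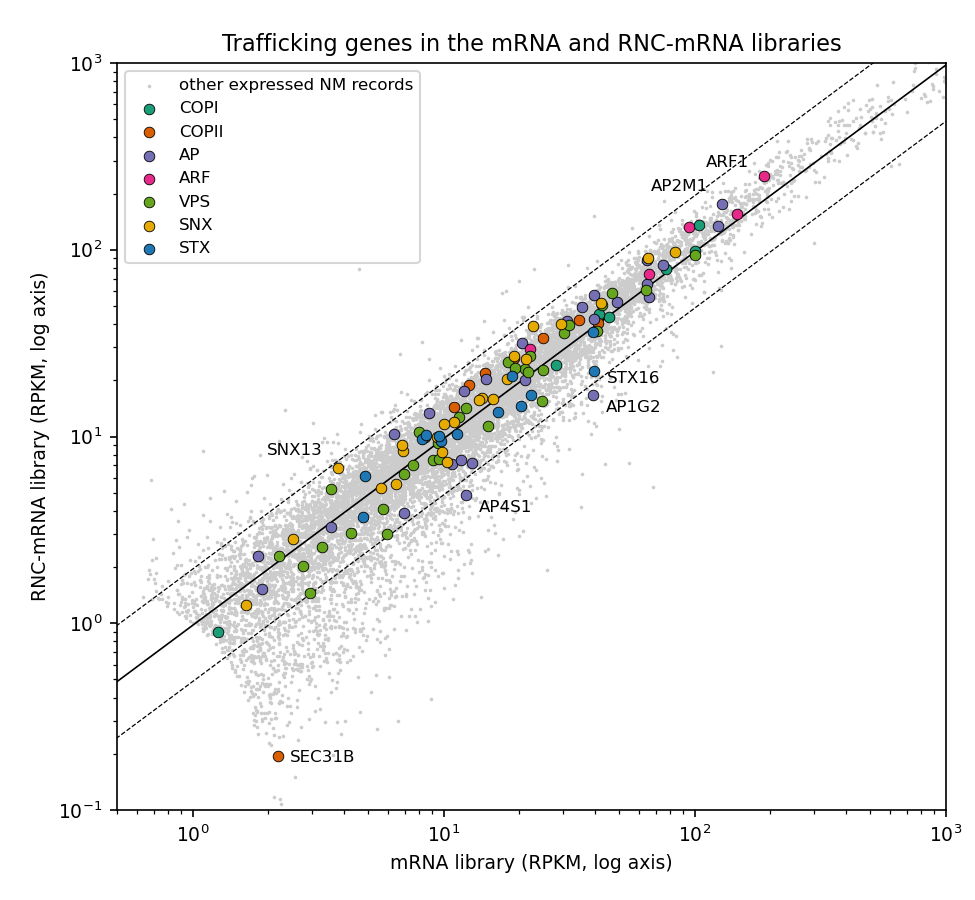
Level of each gene in the total-mRNA library (x axis) and the RNC library (y axis), in RPKM on log axes; coloured points are the 114 expressed trafficking genes by class, grey points are other expressed NM records with values above 0 in both libraries, the solid line is the median gene and dashed lines are 2-fold from it. Only SEC31B, AP4S1 and AP1G2 lie below the lower dashed line and no member lies above the upper one.

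The bases around the start codon, where ribosomes begin the protein, are shown for members that frame the results: the 3 lowest ratios, the 2 highest, the partner of AP1G2, and the SEC24 family, whose paralogs differed in ratio. Each is 13 bases on the transcript strand, read 5′ to 3′ from the GENCODE release 29 transcript (GRCh38) matched to the RefSeq record. Capitals mark the start codon.
SEC31B: ggatagaccATGa
AP4S1: gaaagaaaaATGa
AP1G2: ccagtcaggATGg
AP1G1: gggccgaggATGc
SEC24A: ccagtcatcATGt
SEC24B: agcgccgtcATGt
SEC24C: gctttcataATGa
SEC24D: attttcataATGa
SNX15: ctcggtttcATGt
SNX13: ggtgtaataATGt
A purine (A or G) 3 bases before the ATG was found in 101 of 108 members with a usable reference start (93.5%) and in 85.5% of 11236 expressed NM records. A G directly after the ATG was found in 46 members (42.6%) and in 52.8% of all. Both together were found in 45 members (41.7%) and in 45.3% of all. The median ratio was 0.12 for the 45 members with both features and 0.15 for the others, against 0.04 and 0.03 over all NM records. All 3 low members have the purine, and SNX15, with the second highest ratio, lacks it. SEC24C and SEC24D share the last 11 of the 13 letters, and SEC24A and SEC24B share the last 6. These matches describe the reference letters and were not tested against the ratios.

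COPI, the coatomer of Golgi-derived vesicles, lay at the median gene. Its 7 members on NM records had a median ratio of 0.01, which was -0.02 when centred on NM records and -0.06 with upper-quartile scaling. COPE, the epsilon subunit, had the highest level and ratio of the class, with 104 RPKM in the total-mRNA library and 135 RPKM in the RNC library (0.42, interval 0.23 to 0.61), and a same-strand gene model overlaps 21.8% of its exon bases. COPB1, the beta subunit, had 41.7 and 45.5 RPKM (0.16, interval 0.06 to 0.27). No other interval of the class excluded the median gene at the fewest possible reads. That of COPG2 only just included it (-0.37 to 0.01, on at least 468 and 463 reads). COPA, the large alpha subunit, had 45.6 and 43.7 RPKM (-0.02, interval -0.10 to 0.06). The gamma subunit COPG1 had 100.5 and 98.8 RPKM, and its paralog COPG2 had 27.9965 and 24.1 RPKM, so COPG1 made up 78.2% of the gamma level in the total-mRNA library and 80.4% in the RNC library. For the zeta subunit the split was wider: COPZ1 had 77.0 and 78.8 RPKM, and COPZ2 had 1.26 and 0.899 RPKM on at least 11 and 9 reads. COPB2, the beta-prime subunit, is paired with a non-coding (NR) record in the table and so fell outside the rule. Its levels were 66.6 and 58.2 RPKM (-0.16, interval -0.28 to -0.03).

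COPII, the coat of vesicles leaving the endoplasmic reticulum, lay above the median gene in 8 of 9 members (88.9%, background 52.6%). The interval excluded the median for 7 of these (background 31.6%). That background was 2742 of 6135 NM records at a mean RPKM of at least 10, and 1034 of 5805 at 1 to 10. The class median was 0.42. The GTPase-activating inner coat subunits SEC23A (19.1 and 26.2 RPKM, 0.49) and SEC23B (24.8 and 33.5 RPKM, 0.47) had overlapping intervals, and SEC23B was 56.5% of the pair in the total-mRNA library and 56.1% in the RNC library. SEC23IP, a SEC23 partner at exit sites, had 11.05 and 14.4 RPKM (0.42).

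The cargo-binding SEC24 paralogs split by subfamily. SEC24A had 12.6 and 18.97 RPKM (0.62, interval 0.50 to 0.75) and SEC24B had 14.6 and 21.8 RPKM (0.61, interval 0.47 to 0.76). SEC24C had 41.01 and 40.6 RPKM (0.02, interval -0.07 to 0.12) and SEC24D had 8.45 and 9.88 RPKM (0.26, interval 0.06 to 0.47). The intervals of SEC24A and SEC24B did not overlap that of SEC24C, and they lay just above the upper bound of SEC24D. SEC24C was the most abundant of the 4 in both libraries, at 53.5% of the family level in the total-mRNA library and 44.5% in the RNC library. At SEC24C, 42.6% of the reference exon bases overlap a gene model of undetermined type on the opposite strand, and the labels name no strand-preserving step.

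The outer coat gave the widest gap between paralogs. SEC31A had 34.7 and 42.0 RPKM (0.31, interval 0.21 to 0.41), whereas SEC31B had 2.18 RPKM in the total-mRNA library and 0.196 RPKM in the RNC library. The SEC31B ratio was -2.91 (interval -4.55 to -2.50), or 7.52-fold below the median gene, on at least 97 and 10 reads. It was in the lowest 0.218% of expressed NM records. SEC31B passed the filter, at a mean of 1.19 RPKM, only through its total-mRNA level. A gene at its RNC level could pass only with a low ratio, so its low place is not separate from the filter. With a pseudocount of 0.01 RPKM the ratio was -3.38, and with 1 RPKM, which compresses low levels, it was -1.38. The interval is that of the reads without a pseudocount. SEC31B made up 5.92% of the SEC31 level in the total-mRNA library and 0.464% in the RNC library. A second protein-coding gene model on the same strand overlaps 12.4% of its exon bases.

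**Figure D2:**
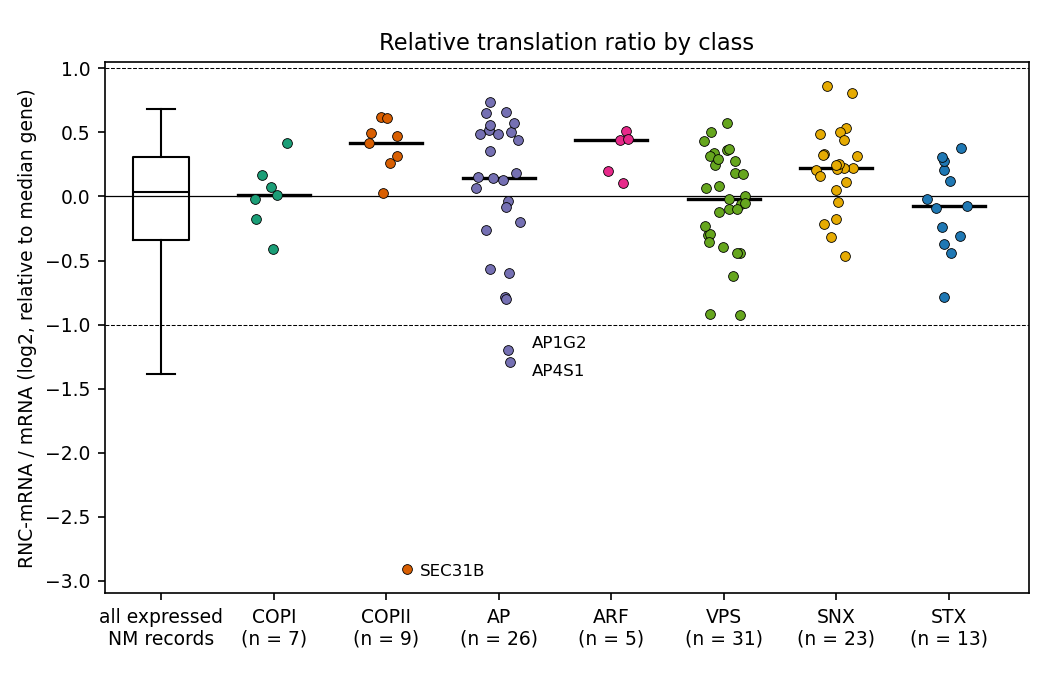
Ratio of RNC-mRNA to mRNA (log2, relative to the median gene) for each expressed member by class; black bars are class medians, and the box shows all expressed NM records (median and quartiles, whiskers at the 5th and 95th percentiles). COPII and ARF have the highest class medians (0.42 and 0.44), and SEC31B stands far below its class.

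All 5 ARF GTPases lay above the median gene with intervals that excluded it (background 31.6%), and the class median was 0.44. At their level, a mean RPKM of at least 10, 2742 of 6135 NM records had such intervals. ARF1, the main Golgi ARF, was the most abundant member of all classes, with 188 RPKM in the total-mRNA library and 249 RPKM in the RNC library (0.44, interval 0.38 to 0.50). ARF3, of the same class, had 95.1 and 132 RPKM (0.51), and ARF6, which acts at the plasma membrane and endosomes, had 22.1 and 29.4 RPKM (0.45). The class II forms were lower in ratio: ARF5 had 148 and 155 RPKM (0.11, interval 0.01 to 0.21) and ARF4 had 65.9 and 73.7 RPKM (0.20, interval 0.09 to 0.32). The intervals of ARF4 and ARF5 did not overlap those of ARF1, ARF3 or ARF6. The order ARF1, ARF5, ARF3, ARF4, ARF6 by level was the same in both libraries.

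The adaptor complexes differed in where their subunits lay. AP-1, AP-2 and AP-3 had medians of 0.44, 0.18 and 0.14, AP-4 had a median of -0.67, and AP-5 had subunits on both sides (-0.01). Of the 18 expressed AP-1 to AP-3 subunits, 14 (77.8%) lay above the median gene, and of the 8 AP-4 and AP-5 subunits 2 (25%) did. The background was 52.6% of all expressed NM records, 62.9% at a mean RPKM of at least 10 and 41.8% at 1 to 10. AP-4 and AP-5 subunits were also less abundant by the median, at 11.3 against 39.6 RPKM in the total-mRNA library. Their mRNA levels ran from 1.90 to 12.9 RPKM, and AP1S2, AP1S3 and AP3M2 lay in or below that range.

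AP-2, which gathers cargo for clathrin-mediated endocytosis at the plasma membrane, lay above the median gene in 5 of 5 subunits, all with intervals that excluded it (background 31.6%). All 5 had a mean RPKM of at least 10, where 2742 of 6135 NM records had intervals wholly above the median gene. The cargo-binding mu subunit AP2M1 had 128 and 177 RPKM (0.50) and the beta subunit AP2B1 had 64.5 and 88.1 RPKM (0.49). The alpha subunits AP2A1 (74.9 and 82.6 RPKM, 0.18) and AP2A2 (39.8 and 42.4 RPKM, 0.13) and the small sigma subunit AP2S1 (124 and 134 RPKM, 0.15) lay closer to the median. The intervals of AP2M1 and AP2B1 did not overlap those of the other 3 subunits. The highest subunit was 3.22-fold above the lowest in the total-mRNA library and 4.18-fold in the RNC library.

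AP-1, the clathrin adaptor of the trans-Golgi network and endosomes, held alternative subunits with ratios far apart. Its gamma subunit AP1G1 had 20.5 RPKM in the total-mRNA library and 31.6 RPKM in the RNC library (0.66, interval 0.52 to 0.80). The alternative gamma subunit AP1G2 had 39.4 and 16.6 RPKM (-1.20, interval -1.42 to -0.99), 2.299-fold below the median gene. AP1G2 was thus the more abundant gamma mRNA in the total-mRNA library, at 65.8% of the pair, and the less abundant in the RNC library, at 34.5%. This pair was singled out after its values were seen. In the reference annotation 61.9% of the exon bases of AP1G2 overlap other genes, THTPA and JPH4 among them, so some of its reads may belong to a neighbour, and how such reads were assigned is not stated in the labels.

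The other AP-1 subunits also had alternatives that differed. AP1M1, the ubiquitous mu subunit, had 39.8 and 57.2 RPKM (0.56, interval 0.35 to 0.77), and AP1M2, the epithelial mu subunit that serves basolateral sorting, had 64.6 and 65.7 RPKM (0.06, interval -0.05 to 0.18). AP1M2 was the larger of the pair in both libraries, at 61.9% of their level in the total-mRNA library and 53.5% in the RNC library. The sigma subunit AP1S1 had 65.6 and 55.6 RPKM (-0.20, interval -0.34 to -0.06). Its paralog AP1S3 had 6.35 and 10.3 RPKM (0.73, interval 0.52 to 0.97), and AP1S2 had 1.82 and 2.29 RPKM with an interval from -0.23 to 0.99. The beta subunit AP1B1 had 35.4 and 49.4 RPKM (0.52), close in ratio to its AP-2 counterpart AP2B1.

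AP-3 carries cargo from endosomes towards lysosomes and related organelles. AP3M1 (14.8 and 20.2 RPKM, 0.49) and AP3S1 (31.1 and 41.3 RPKM, 0.44) had intervals above the median gene. The intervals of the large subunits AP3D1 (48.9 and 52.5 RPKM, 0.14) and AP3B1 (21.1 and 20.1 RPKM, -0.03) included it. That of AP3D1 (-0.18 to 0.46) is wide because it uses the fewest possible reads, 149 and 184, so its side is left undecided. AP3M2 had 3.56 and 3.27 RPKM (-0.08). AP3B2, the neuronal beta subunit, had 0.112 RPKM among total mRNA and stood at 0 in the RNC table column. For AP3S1 and AP3M1, 21.4% and 21.1% of the exon bases overlap a gene on the opposite strand.

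AP-4, a clathrin-independent adaptor of the trans-Golgi network, lay below the median gene in 4 of 4 subunits, and 3 of the intervals excluded it (background 28.3%). All 4 had a mean RPKM of 1 to 10, where 1947 of 5805 NM records had intervals wholly below the median gene. AP4S1, the small sigma subunit, had 12.3 RPKM in the total-mRNA library and 4.85 RPKM in the RNC library (-1.29, interval -1.53 to -1.09), 2.44-fold below the median gene. AP4E1, the epsilon subunit, had 6.96 and 3.90 RPKM (-0.78, interval -1.01 to -0.58), and the mu subunit AP4M1 had 10.8 and 7.10 RPKM (-0.56, interval -0.89 to -0.25). AP4B1, the beta subunit, had 1.90 and 1.52 RPKM (-0.26, interval -0.88 to 0.32). No reference exon of another gene overlaps AP4S1 or AP4E1, whereas 20.1% of AP4M1 and 19.9% of AP4B1 is overlapped on the opposite strand. The antisense record AP4B1-AS1 had 11.6 and 2.60 RPKM (-2.08), more than AP4B1 itself in both libraries.

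AP-5, an adaptor of late endosomes, split into a high and a low pair. AP5M1 (8.75 and 13.4 RPKM, 0.65, interval 0.44 to 0.88) and AP5S1 (12.1 and 17.5 RPKM, 0.57, interval 0.34 to 0.82) lay above the median gene. AP5Z1 (12.9 and 7.21 RPKM, -0.80, interval -0.98 to -0.63) and AP5B1 (11.7 and 7.51 RPKM, -0.60, interval -0.77 to -0.44) lay below it. The 4 mRNA levels were within 1.48-fold of each other, and the RNC-mRNA levels spread over 2.43-fold.

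**Figure D3:**
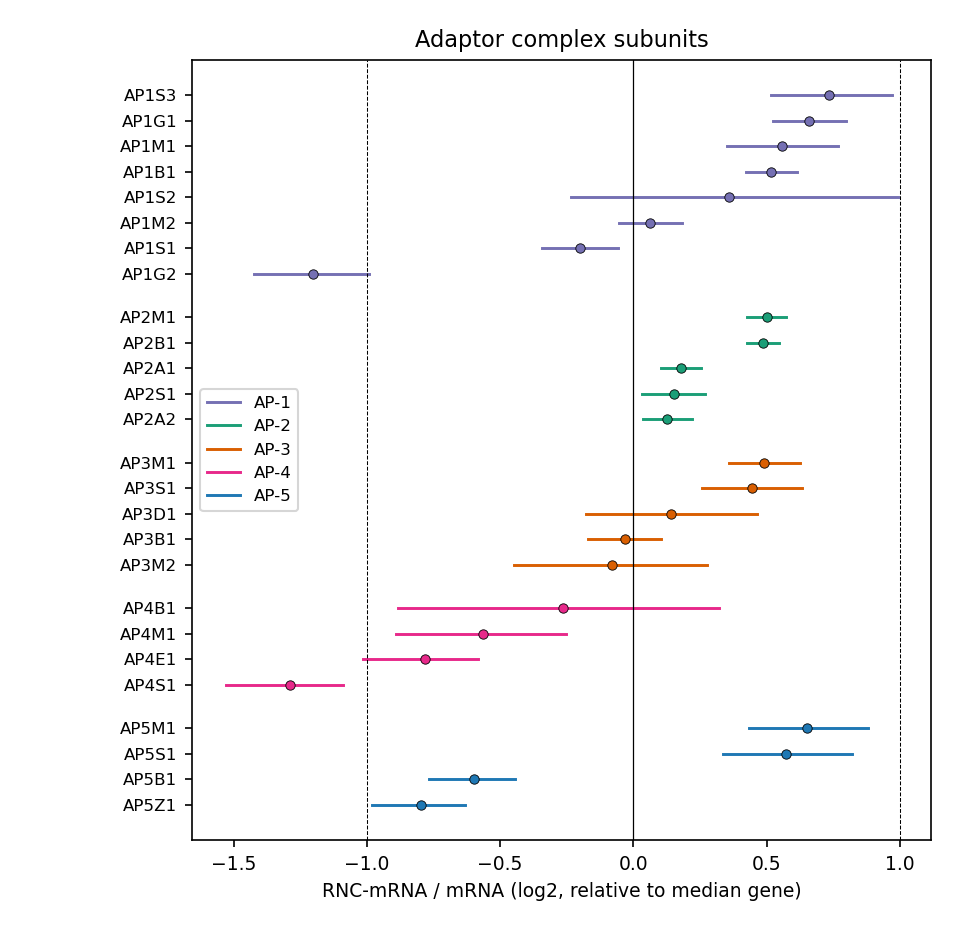
Ratio (log2, relative to the median gene; points) and 95% counting interval (lines) of each expressed adaptor subunit, grouped as AP-1 to AP-5; dashed lines are 2-fold from the median gene. All 5 AP-2 subunits lie to the right of 0, all 4 AP-4 points lie to the left, and AP1G2 stands apart from the other AP-1 subunits.

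Genes of the VPS name were centred on the median gene as a group (median -0.02 over 31 expressed members, 0.08 with no filter on low values), but their complexes lay on different sides. Retromer, the endosomal retrieval trimer, had 3 of 4 members above the median with intervals that excluded it (background 31.6%). All 4 had a mean RPKM of at least 10, where 2742 of 6135 NM records had such intervals. The 3 were VPS35 (42.6 and 50.3 RPKM, 0.28), VPS26A (22.01 and 27.1 RPKM, 0.34) and VPS26B (31.5 and 39.4 RPKM, 0.36). VPS29, the small scaffold subunit, had 63.7 and 61.2 RPKM (-0.02). The VPS26 paralogs had nearly the same split, with VPS26B at 58.9% in the total-mRNA library and 59.2% in the RNC library. The highest retromer subunit was 2.89-fold above the lowest in the total-mRNA library and 2.26-fold in the RNC library.

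HOPS and CORVET, which tether late and early endosomes, spread around the median gene in 7 subunits. VPS16 (24.6 and 15.5 RPKM, -0.62, interval -0.80 to -0.45) and VPS39 (15.0 and 11.3 RPKM, -0.36, interval -0.52 to -0.20) were lowest. VPS33A (19.2 and 23.4 RPKM, 0.32, interval 0.15 to 0.49) and VPS18 (12.3 and 14.2 RPKM, 0.25, interval 0.07 to 0.43) were highest. VPS11, VPS41 and VPS8 had intervals that included the median gene, and that of VPS8 (-0.77 to 0.30) uses the fewest possible reads, 63 and 60. VPS16 had the highest level of the 7 in the total-mRNA library, and VPS33A and VPS11 had more than it in the RNC library. VPS33B, a paralog of VPS33A that works outside HOPS, had 9.55 and 7.59 RPKM (-0.29, interval -0.56 to -0.02), and its interval did not overlap that of VPS33A. A protein-coding gene model on the same strand overlaps 75.6% of the exon bases of VPS33B, 29.8% of those of VPS33A are overlapped likewise, and VPS16 has 20.3% overlapped by PTPRA.

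GARP and EARP tether endosome-derived carriers. VPS54, specific to GARP, had 8.00 and 10.5 RPKM (0.43, interval 0.13 to 0.74), VPS52 had 24.9 and 22.7 RPKM (-0.10) and VPS53 had 4.27 and 3.03 RPKM (-0.44, interval -0.72 to -0.20). VPS51, their shared subunit, is paired with an NR record and lay outside the rule, at 95.3 and 92.9 RPKM (0.00).

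ESCRT members lay on both sides of the median gene. VPS25 of ESCRT-II was the most abundant VPS gene, with 100.2 RPKM in the total-mRNA library and 93.6 RPKM in the RNC library (-0.06, interval -0.18 to 0.06). VPS28 of ESCRT-I had 40.7 and 36.5 RPKM (-0.12), and VPS36 of ESCRT-II had 11.5 and 12.7 RPKM (0.19). Among the alternative ESCRT-I subunits, VPS37A (3.57 and 5.23 RPKM, 0.58) and VPS37C (18.1 and 25.003 RPKM, 0.50) had higher ratios than VPS37B (21.0 and 23.1 RPKM, 0.17) and VPS37D (5.75 and 4.10 RPKM, -0.44). VPS37B was the most abundant of these 4 in the total-mRNA library, at 43.4%, and VPS37C in the RNC library, at 43.5%. This exchange of order was picked after the values were seen, and other gene models overlap 21.7% of the exon bases of VPS37B. The ATPase VPS4A, which takes ESCRT-III apart, had 46.9 and 58.9 RPKM (0.37, interval 0.25 to 0.49, 29.7% of exon bases overlapped by other genes), and VPS4B had 7.52 and 7.08 RPKM (-0.05, interval -0.31 to 0.21).

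The VPS13 proteins, very large lipid transfer proteins of membrane contact sites, lay at or below the median gene. VPS13A had 2.94 and 1.46 RPKM (-0.93, interval -1.24 to -0.71). Its ratio was -0.97 with a pseudocount of 0.01 RPKM and -0.65 with 1 RPKM. VPS13C had 2.75 and 2.02 RPKM (-0.39), VPS13D had 3.27 and 2.56 RPKM (-0.30), and VPS13B had 2.21 and 2.28 RPKM (0.08, interval -0.14 to 0.31). VPS13A was the second most abundant of the 4 in the total-mRNA library and the least abundant in the RNC library. VPS9D1, which carries a RAB exchange factor domain, had 5.96 and 3.02 RPKM (-0.92, interval -1.33 to -0.56), with 13.9% of its exon bases overlapped on the opposite strand. VPS45, an SM protein that works with endosomal SNAREs, had 6.92 and 6.28 RPKM (-0.10), and VPS72 had 30.2 and 35.998 RPKM (0.29, interval -0.07 to 0.65).

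**Figure D4:**
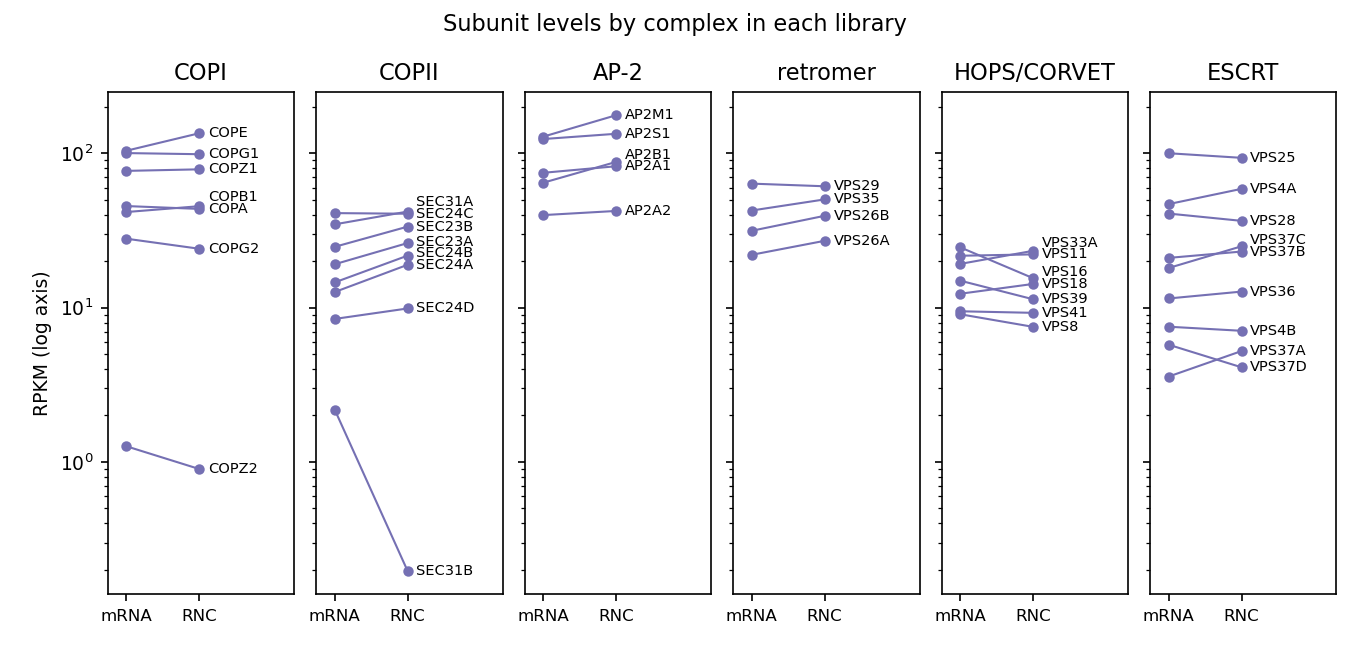
RPKM (log axis) of each expressed subunit in the total-mRNA library (left point) and the RNC library (right point) for 6 complexes, with 1 line per gene. Most lines are nearly flat, the retromer order is the same in both libraries, and the SEC31B line runs from 2.18 down to 0.196 RPKM.

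Sorting nexins bind endosomal phosphoinositides through a PX domain, and many bend membranes or carry cargo. They lay above the median gene in 18 of 23 expressed members (78.3%, background 52.6%, or 62.9% at a mean RPKM of at least 10). The interval excluded it for 12 of these (background 31.6%), and the class median was 0.22. That background was 2742 of 6135 NM records at a mean RPKM of at least 10, and 1034 of 5805 at 1 to 10. Among those with a membrane-bending BAR domain, 9 of 11 lay above. SNX5 (83.2 and 96.8 RPKM, 0.26), SNX6 (21.3 and 26.1 RPKM, 0.33) and SNX2 (42.4 and 52.0 RPKM, 0.33), which pair into tubule-forming dimers of the retrieval pathway, had intervals above the median gene. SNX1, the paralog of SNX2, had 9.86 and 8.25 RPKM (-0.22, interval -0.55 to 0.11), so SNX2 was 81.2% of the pair in the total-mRNA library and 86.3% in the RNC library. SNX30 had 6.81 and 9.02 RPKM (0.44, interval 0.28 to 0.61), the highest ratio of the BAR group. SNX9 (0.25) and SNX18 (0.32), paralogs that act in endocytosis, had overlapping intervals.

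The highest ratios of all classes were those of SNX13 and SNX15. SNX13, a PXA and RGS domain protein, had 3.79 RPKM in the total-mRNA library and 6.78 RPKM in the RNC library (0.86, interval 0.65 to 1.11). Its relative SNX19 had 19.01 and 26.8 RPKM (0.53, interval 0.43 to 0.64), SNX14 had 15.7 and 15.9 RPKM (0.05), and SNX25 had 2.52 and 2.84 RPKM (0.20). SNX15 had 22.7 and 38.9 RPKM (0.81, interval 0.64 to 0.98). Nearly all of its exon bases (99.9%) also belong to the read-through gene ARL2-SNX15, so its reads cannot be told from those of that transcript. SNX3, which works with retromer, had 65.2 and 90.0 RPKM (0.50, interval 0.26 to 0.75), and its close relative SNX12 had 29.4 and 40.1 RPKM (0.49, interval 0.35 to 0.63). SNX27, whose PDZ and FERM domains couple receptors to retromer, was the lowest sorting nexin, at 10.3 and 7.26 RPKM (-0.46, interval -0.63 to -0.31).

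Syntaxins were the class with the lowest share of members above the median gene, 5 of 13 (38.5%, background 52.6%). Of all NM records with a mean RPKM of 1 to 10, 41.8% lay above it, and of those with at least 10, 62.9%. The class median was -0.07, or 0.01 with no filter on low values. STX16, a trans-Golgi network syntaxin, had 39.8 RPKM in the total-mRNA library and 22.5 RPKM in the RNC library (-0.78, interval -0.89 to -0.68). The read-through record STX16-NPEPL1 overlaps 29.1% of its exon bases. STX10 (20.3 and 14.6 RPKM, -0.44, interval -0.70 to -0.18) and STX4 (22.2 and 16.7 RPKM, -0.37, interval -0.62 to -0.13) were also below with intervals that excluded the median. STX12 (4.85 and 6.15 RPKM, 0.38), STX6 (8.19 and 9.69 RPKM, 0.28) and STX3 (18.8 and 21.1 RPKM, 0.21) were above it likewise. STX6 and STX10, close paralogs, had intervals that did not overlap. STX5, the Golgi syntaxin, had 39.5 and 36.5 RPKM (-0.07), and STX7, STX8, STX17, STX18, STX1A and STX2 had intervals that included the median gene. That of STX7 (-0.15 to 0.77) is wide because it uses the fewest possible reads, 70 and 97, for a long transcript.

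Among plasma membrane syntaxins, STX3 is the apical form and STX4 the basolateral form in polarised epithelia. STX4 was the most abundant of them in the total-mRNA library, at 38.3% of their summed level against 32.3% for STX3. In the RNC library STX3 was the most abundant, at 40.3% against 31.9% for STX4, and the intervals of the 2 ratios did not overlap. This exchange of order was singled out after the values were seen.

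**Figure D5:**
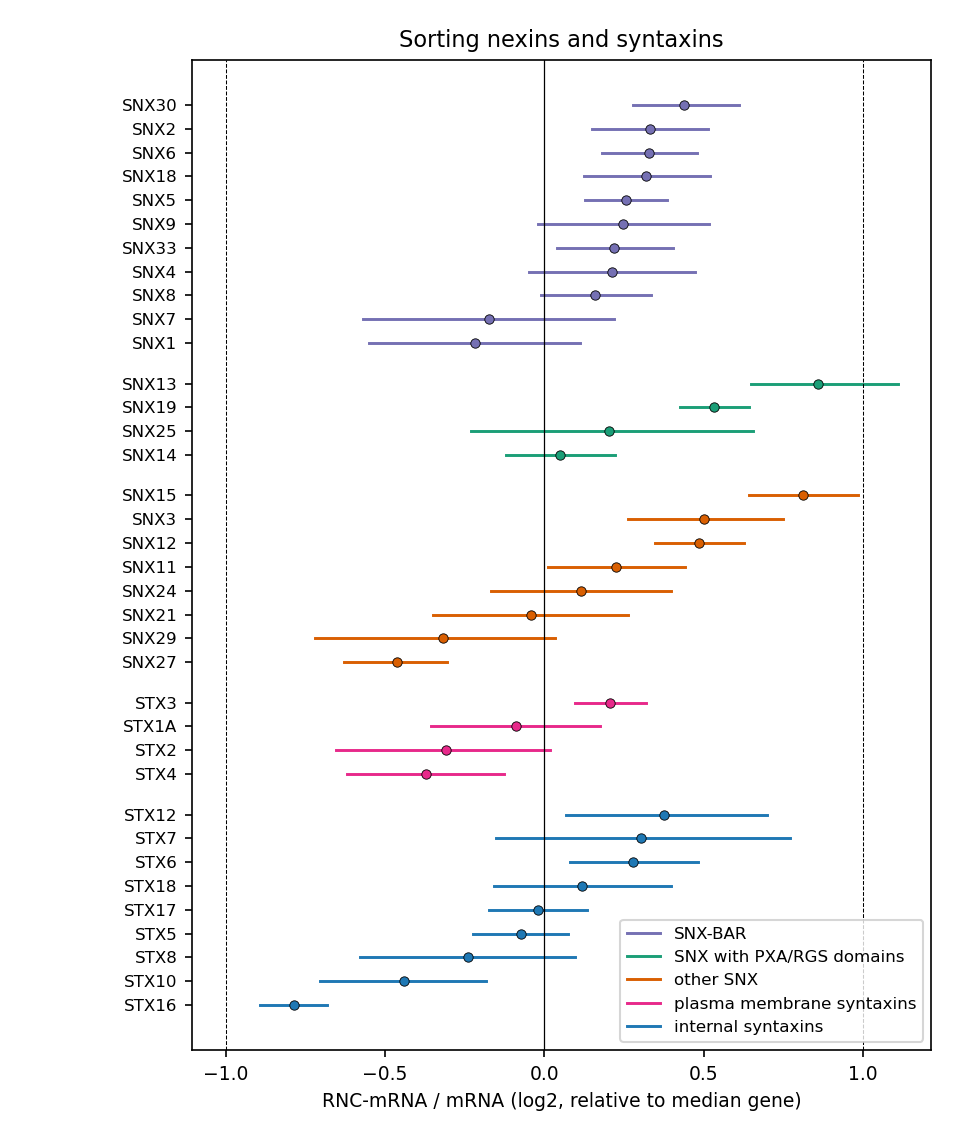
Ratio (log2, relative to the median gene; points) and 95% counting interval (lines) of each expressed sorting nexin and syntaxin, by group; dashed lines are 2-fold from the median gene. Of the sorting nexins 18 of 23 lie to the right of 0, and of the syntaxins 5 of 13 do, where 52.6% of all expressed NM records have a ratio above 0.

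Paralogs were compared over a list of 24 pairs in which both genes were expressed. The median absolute difference of their ratios was 0.32, and the counting intervals did not overlap for 9 pairs. In that list only SEC31A and SEC31B differed by more than 1, at 3.22, and SEC31B passed the filter only through its total-mRNA level. The list does not hold every pair within a family, and AP1G1 with AP1G2 is among those it leaves out. Of 30 further pairs within the families whose shares are given, 19 had intervals that did not overlap and 3 differed by more than 1: AP1G1 against AP1G2 (1.86), VPS37A against VPS37D (1.02) and VPS13A against VPS13B (-1.01). These 30 pairs share genes with each other and were added after their values were seen. Neither set was compared with pairs of unrelated expressed genes, so the counts do not describe paralogs in particular. Over all expressed NM records the quartiles of the ratio were -0.34 and 0.30. Their intervals lay wholly above the median gene in 31.6% and wholly below it in 28.3%. Listed pairs with nearly equal ratios were SEC24A with SEC24B (difference 0.01), SEC23A with SEC23B (0.02) and VPS26A with VPS26B (-0.02). In the list of 24, the largest differences after SEC31 were AP1S1 against AP1S3 (-0.93), STX6 against STX10 (0.72) and VPS33A against VPS33B (0.61).

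The 8 members below the filter included AP3B2, SNX16, SNX20, SNX31, SNX32, STX11 and STX19. SNX31 and STX19 were listed at 0 in both libraries, and AP3B2 and SNX32 were listed at 0 in the RNC library alone. SNX20 had 0.502 and 0.0273 RPKM, on at least 16 and 1 reads. STX11, known from immune cells, had 0.358 and 0.213 RPKM. SNX16 had 0.690 and 0.992 RPKM.

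A list of 149 other trafficking genes, 147 of them in the table, was described in the same way. Of its 145 expressed genes, 100 (68.97%) were above the median gene, against 52.6% of all expressed NM records and 62.9% of those with a mean RPKM of at least 10. In the list 1 gene was at least 2-fold below the median gene (background 8.88%) and 0 were at least 2-fold above it (background 1.33%), and the median was 0.16. The partners of COPII and of ER exit had 16 of 21 above (median 0.24), led in level by the retrieval receptor KDELR1 (225 and 298 RPKM, 0.44) and the cargo receptor SURF4 (189 and 245 RPKM, 0.41). The COPI partners and ARF regulators ranged from the GTPase-activating protein ARFGAP1 (76.9 and 37.9 RPKM, -0.98) to the exchange factor ARFGEF2 (13.3 and 21.4 RPKM, 0.71), with the delta-COP gene ARCN1 at 92.8 and 112 RPKM (0.31). Clathrin and GGA adaptors ranged from GGA1 (-0.76) to NECAP1 (0.78), and the clathrin light chain CLTA (131 and 160 RPKM, 0.33) and the epsin EPN1 (0.37) were the most abundant.

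Tethers ranged from the golgin GOLGA2 (36.5 and 18.6 RPKM, -0.93) to the exocyst subunit EXOC5 (4.47 and 8.59 RPKM, 0.96), with 20 of 31 above the median gene, and the TRAPP subunit TRAPPC1 was the most abundant (142 and 145 RPKM, 0.07). Other SNAREs and fusion factors ranged from VAMP1 (-1.01, interval -1.81 to -0.31) to the Golgi SNARE GOSR2 (0.62), and the endosomal VAMP8 was the most abundant (107 and 119 RPKM, 0.18). ESCRT partners ranged from the ubiquitin-binding HGS (65.2 and 48.1 RPKM, -0.40) to the VPS4 cofactor VTA1 (16.1 and 28.5 RPKM, 0.86), and the ESCRT-II subunit SNF8 was the most abundant (155 and 156 RPKM, 0.04). Retromer partners and sorting receptors ranged from WASH1 (-0.86), which has near-identical copies, to COMMD5 (0.68), and the mannose 6-phosphate receptor M6PR was the most abundant (69.7 and 96.4 RPKM, 0.51).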

How the data were processed

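Poly(A) RNA was fragmented by heat, copied with random primers and amplified by PCR, per the labels' protocols. RPKM values for 1 RefSeq record per symbol were computed and deposited by the authors, per the file headers. The submitters' processing notes name hg19, and the aligner and counter are not given in the sources used here. No coordinates are reported, because the reference (GENCODE release 29, RefSeq links) is on GRCh38. To recover depth, candidate library totals were tried, and the one giving whole reads for the largest number of genes was used. For total mRNA this was 1363 of 7477 genes, against 742 at the next best total. For RNC it was 1033 of 6656 genes, against 498. Most genes tried thus gave no whole reads at their reference transcript length, and the intervals and read counts rest on these inferred totals. The fewest reads behind both values of a gene give the widest intervals, so counts read "at least". The 114 expressed members rest on a median of at least 465 and 557.5 reads. Ratios used Python 3.11.15, numpy 2.4.6 and scipy 1.17.1, and the steps were tested on simulated data. The genes named follow a rule: all members of obligate complexes and all ARFs, and in each class the most abundant, the highest and lowest ratios and those at least 2-fold from the median. Of the other trafficking genes the most abundant and the highest and lowest ratios of each sub-list are named. Further sorting nexins, syntaxins and VPS genes are named as paralogs or were chosen after their values were seen, as were the families whose shares are given. The members and lists were chosen with earlier results of these data known. Alternatives were other pseudocounts, scalings and filters. Adding NR-paired genes and leaving out overlapped members were chosen after seeing the data. Values of 1 member below the filter are not reported here.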

Additional observations from a re-analysis of the deposited data

How the results depend on the processing

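With 1 library per group, no result has a replicate check, and depth limits the weakest members most: COPZ2 rests on at least 11 and 9 reads. Over all alternatives, the number of members at least 2-fold below the median gene ran from 1 to 4 and the number at least 2-fold above it stayed at 0. It was 1 when the 49 members whose reference exons overlap another gene were left out, because SEC31B and AP1G2 are among them. The members' median ratio ran from 0.09 to 0.24, and was 0.24 with no filter on low values, where the ARF median was 0.54. That setting moved the centre of all genes from -0.04 to -0.14. Of 110 values of counts and medians under alternatives, 107 stayed within their limits. The limit was a set fold change for counts. For medians it was an interval set by the spread of the members' own ratios. For COPI and ARF that interval ran from the lowest to the highest member, so few settings could leave it. The count of 1 and the ARF median of 0.54 were among the values outside. Other scalings turned the sign of 6 members close to 0 and of the COPI median, which was also -0.04 when the filter was set at 5 RPKM. With no filter the VPS median was 0.08 and the STX median 0.01, and the VPS median was 0.04 without overlapped members, so the sign of these 3 class medians depends on the setting. No paired analysis was possible because each group has 1 library.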
